A study of Homo sapiens with 6 samples.

Results

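Cytochrome b5 and the enzymes that reduce it were followed through a genome-wide CRISPRi screen read out by fluorescence from a tagged opioid receptor. The family comprised 8 genes of the 18905 measured, picked by gene name. They were 5 NADH-cytochrome b5 reductases or reductase-like genes (CYB5R3, CYB5R1, CYB5R2, CYB5R4 and CYB5RL), 2 cytochromes b5 (CYB5A and CYB5B), and POR, the reductase that serves cytochrome P450 enzymes. The family was selected because CYB5R3 had one of the highest phenotypes of this same screen, so its position there is a description and carries no test.

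The screen used HEK293-FLP, a human embryonic kidney line with a site for inserting a transgene. All cells carried DOR-MRS(WT)-APEX2 under the ubiquitin C promoter, a delta opioid receptor with the recycling sequence of the mu receptor in its tail, fused to the peroxidase APEX2. They also carried dCas9-KRAB, a repressor that an sgRNA directs to a promoter, and the labels describe clonal populations picked for strong knockdown. After selection at 0.75 μg/ml puromycin, all cells received 10 μM DADLE, an opioid peptide, and then AUR, which APEX2 turns into a fluorescent product. Agonist was applied for 90 min and knockdown lasted 8 days according to the labels, but the methods describe a longer treatment and a shorter knockdown. Sorting gave a top and a bottom fluorescence quartile for each of 3 sublibraries (H17, H23 and H456), with 1 library each and no replicate, so an error here is the SD over the sgRNAs of a gene. Totals were 23426498 to 47989659 reads in the top libraries and 28996259 to 50486627 reads in the bottom libraries.

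Cytochrome b5 is a small heme protein anchored in membranes by its tail. It takes electrons from NADH through a flavin-containing reductase and passes them to desaturases, sterol enzymes and some P450s. CYB5R3 is the broadly expressed reductase of this chain, its soluble form keeps hemoglobin reduced in red cells, and its loss causes methemoglobinemia. POR instead uses NADPH and feeds P450s, heme oxygenases and squalene epoxidase, and can also reduce cytochrome b5.

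An sgRNA's phenotype compares its share of the top library with its share of the bottom library as a log2 ratio, from which the median ratio of the non-targeting control (NTC) sgRNAs was subtracted. A positive value means that cells with the sgRNA were more frequent in the brighter quartile. All sorted cells had received agonist and AUR. Whether a value came from the amount of receptor or from the APEX2 reaction itself was not tested. The quartiles were taken from the sample titles. The short library names carry a final letter that matches the other quartile, and with those every sign below would turn.

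CYB5R3 had the highest phenotype of its family, at 0.78 ± 0.19 (SD, n = 5 sgRNAs), a 1.72-fold higher share in the top than in the bottom quartile relative to the NTC median, and ranked 3 of 6016 genes in H23 and 4 of all 18905. The other 7 genes lay between −0.08 and 0.22. In units of the SD of the NTC sgRNAs of the same sublibrary, CYB5R3 was at 2.80 and the others were at −0.16 to 0.47. That SD is one of single sgRNAs and not of gene means. It also differs by sublibrary (0.47 in H17, 0.28 in H23 and 0.30 in H456), which enters the contrast. In H17 the NTC sgRNAs spread further below 0 than above it.

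CRISPRi sgRNAs are designed around transcription start sites, so the promoters of CYB5R3 and of CYB5A, the endoplasmic reticulum cytochrome b5 that the reductase serves, are shown for comparison. They are the 250 bases before the start site in RefSeq (GRCh38.p14), read 5′ to 3′ on the gene's strand. Capitals mark the GC box, GGGCGG or its reverse complement CCGCCC, the letters recognised by Sp1-type factors. The CYB5R3 promoter lies upstream of the gene at chr22:42649393-42649642 on the minus strand, and that of CYB5A at chr18:74291964-74292213 on the minus strand.
CYB5R3: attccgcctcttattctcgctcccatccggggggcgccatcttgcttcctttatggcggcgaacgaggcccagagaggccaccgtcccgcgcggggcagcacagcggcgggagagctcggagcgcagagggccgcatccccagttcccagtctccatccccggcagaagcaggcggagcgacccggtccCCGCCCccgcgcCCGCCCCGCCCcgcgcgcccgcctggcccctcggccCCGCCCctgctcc
CYB5A: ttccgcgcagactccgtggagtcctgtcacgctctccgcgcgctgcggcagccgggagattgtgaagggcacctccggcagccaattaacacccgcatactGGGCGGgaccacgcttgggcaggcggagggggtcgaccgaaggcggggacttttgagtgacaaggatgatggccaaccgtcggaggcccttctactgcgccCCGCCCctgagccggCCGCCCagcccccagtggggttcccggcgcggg
The CYB5R3 stretch held 4 GC boxes, of which a neighbouring pair shares a base, and 31 CpG at 75.2% G and C. The CYB5A stretch held 3 GC boxes and 26 CpG at 69.6%. At least 1 GC box was found in 42.6% of the 35116 promoters in the RefSeq table and at least 4 in 7.63%. The letters NGG, the PAM of the Cas9 used in such libraries, occurred 76 times on both strands of the CYB5R3 stretch and 66 times on those of CYB5A, against a median of 48. The table lists 3 start sites for CYB5R3 and the one shown is the farthest upstream. The others held 0 GC boxes each, with 2 and 8 CpG, 62.8% and 54% G and C, and 67 and 42 NGG. The promoters listed for CYB5R2 held 3, 1 and 0 GC boxes, with 69, 45 and 45 NGG. Which of them the sgRNAs lie at was not settled, because the sgRNA names state positions without a genome build. The table held 10 promoters for 6 of the 8 genes, without POR and CYB5R1.

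All 5 CYB5R3 sgRNAs had more reads in the top library than in the bottom library. In order of position they had 669, 1084, 1737, 1774 and 818 reads in the top quartile, against 333, 657, 834, 797 and 354 reads in the bottom quartile. Their summed reads were 6082 in the top library and 2975 in the bottom library, whose totals were 47989659 and 40946430. The top reads exceeded the bottom reads for every sgRNA, and the sgRNAs differed among themselves in abundance, from 0.40 to 1.02 times the median sgRNA of H23.

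The phenotypes of these 5 sgRNAs, in the same order, were 0.76, 0.48, 0.81, 0.91 and 0.96. The counting SD of each was between 0.06 and 0.10 and reflects read counting alone, as amplified reads that carry no molecular identifier are not separate molecules. In H23 the central 95% of 570 NTC sgRNAs ran between −0.64 and 0.51. Thus 4 sgRNAs lay above that range and the lowest, the only one on the minus strand, lay inside it, above 96.8% of NTC sgRNAs. At least 4 sgRNAs above the range of their sublibrary were found for 3 genes of 18905 (0.0159%), namely CYB5R3, SEPHS2 and WDR91, all in H23. The upper edge was lowest there, at 0.51 against 0.59 in H17 and 0.57 in H456. Nothing is read from this count, as the family was chosen on the CYB5R3 value. The CYB5R3 sgRNAs span 383 bp, and the last pair, 3 bp apart on the same strand, share most of their target. This pair had 0.91 and 0.96, and averaging overlapping sgRNAs first gave 0.75 for the gene.

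**Figure D1:**
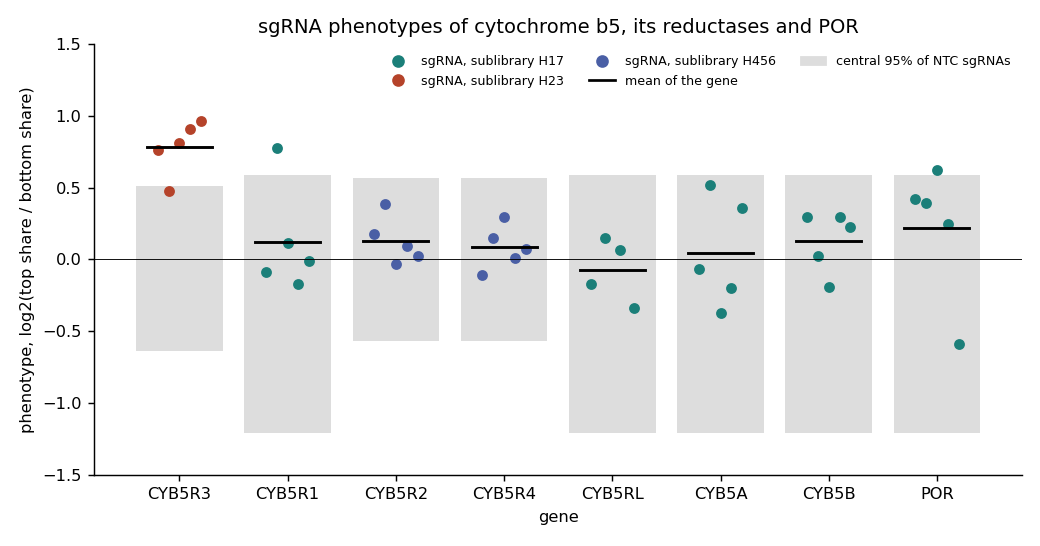
Phenotype of each analysed sgRNA (y axis, log2 of the top over the bottom share after NTC centring) for the 8 genes (x axis), with the mean of the gene as a black line and the central 95% of the NTC sgRNAs of its sublibrary in grey. Of the CYB5R3 sgRNAs, 4 lie above the grey range, against 2 of the 34 sgRNAs of the other genes.

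The spread among the CYB5R3 sgRNAs was somewhat below the middle of the sublibrary. The SD over sgRNAs was 0.19, against a median of 0.23 over H23 genes, and 34.5% of H23 genes had a lower one. Leaving out each sgRNA in turn gave a phenotype between 0.74 and 0.86.

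Among the other reductases, CYB5R1 is a membrane enzyme that has been tied, with POR, to lipid peroxidation. It had a phenotype of 0.12 ± 0.38 (SD, n = 5 sgRNAs) that rested on a single sgRNA. That sgRNA had 428 reads in the top library and 310 in the bottom library and a phenotype of 0.78, above the NTC range of H17 (−1.21 to 0.59). The other 4 ranged between −0.17 and 0.12, and the median over the 5 was −0.01.

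CYB5R2, a further paralogue of the reductase, had 0.13 ± 0.16 (SD, n = 5 sgRNAs), with sgRNAs from −0.03 to 0.39. CYB5R4 joins a cytochrome b5 domain and a reductase domain in a single protein. It had 0.08 ± 0.15 (SD, n = 5 sgRNAs), with sgRNAs from −0.11 to 0.30. Both genes are in H456, where the central 95% of 739 NTC sgRNAs ran from −0.57 to 0.57, and all 10 of their sgRNAs lay inside it.

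CYB5RL, a reductase-like gene whose function is little known, had −0.08 ± 0.22 (SD, n = 4 sgRNAs) and was the only member below 0. Another sgRNA, with 23 reads in the top library and 43 in the bottom library, fell under the minimum of 50 reads and was left out. All 4 analysed sgRNAs lie within 1000 bp of sgRNAs for MRPL37, a mitochondrial ribosomal protein gene, the nearest 211 bp away, and whether MRPL37 was silenced as well was not measured. MRPL37 had 0.01 ± 0.38 (SD, n = 5 sgRNAs). No sgRNA of the other 7 members lay that close to those of another gene.

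**Figure D2:**
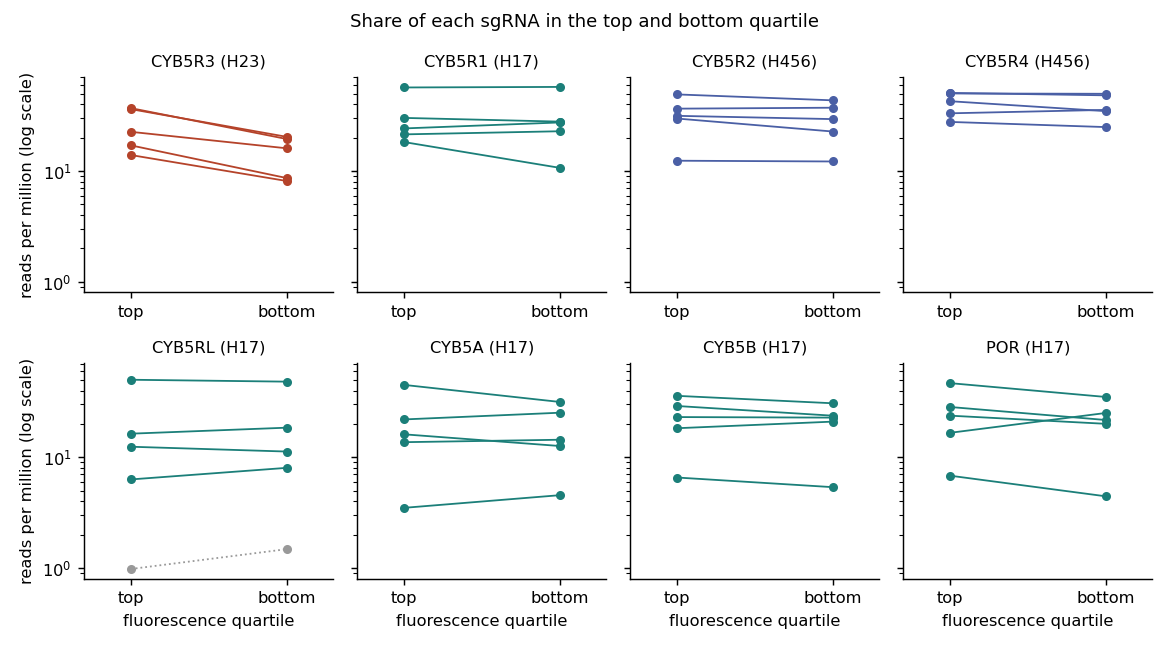
Share of each sgRNA (reads per 1000000 reads of the library, log scale) in the top quartile (left) and the bottom quartile (right), a line per sgRNA and a panel per gene. All 5 CYB5R3 lines fall toward the bottom quartile, whereas the lines of the other genes run in both directions, and the grey dotted CYB5RL sgRNA was under the read minimum.

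The electron carriers themselves lay near 0. CYB5A, the form of the endoplasmic reticulum, had 0.05 ± 0.38 (SD, n = 5 sgRNAs). Its sgRNAs had 321, 1056, 82, 515 and 378 reads in the top library, against 418, 917, 132, 733 and 367 in the bottom library. Their phenotypes were −0.07, 0.52, −0.37, −0.20 and 0.36, so that 2 were positive and 3 negative. CYB5B, the form of the mitochondrial outer membrane, had 0.13 ± 0.21 (SD, n = 5 sgRNAs). Its sgRNAs had 154, 541, 429, 681 and 841 reads in the top library, against 156, 662, 609, 689 and 892 in the bottom library, and 4 of the 5 phenotypes were positive. All 10 sgRNAs of the pair lay inside the NTC range.

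POR had the second highest mean of the family, 0.22 ± 0.47 (SD, n = 5 sgRNAs), above 91.9% of H17 genes. Its sgRNAs had 1095, 667, 160, 557 and 390 reads in the top library, against 1017, 630, 129, 582 and 729 in the bottom library. Their phenotypes were 0.42, 0.40, 0.62, 0.25 and −0.59. The highest was above the NTC range and rests on the fewest reads, with a counting SD of 0.17. The lowest overlaps its neighbour at 0.25, with positions 15 bp apart on the same strand. The SD over sgRNAs exceeded the mean.

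In descending order the means ran CYB5R3, POR, CYB5R2, CYB5B, CYB5R1, CYB5R4, CYB5A and CYB5RL. The ranges of the sgRNAs overlapped between every pair of neighbours in that order, CYB5R3 and POR included. CYB5R3 exceeded POR by 0.56. Of the 34 sgRNAs of the 7 other genes, 3 reached the lowest CYB5R3 sgRNA, 22 were positive and 12 negative. Across the 8 genes, 7 had a positive phenotype, with a median of 0.13, against 50.4% of all genes positive and a median of 0.00141. Nothing is read from this count, as it includes CYB5R3, whose value led to the choice of the family. The background is also rough, since 5 of the 8 lie in H17, where the median gene phenotype was 0.02. CYB5R1 and CYB5A count as positive by their means, although each had 2 of 5 positive sgRNAs and a negative median.

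Calls were made with an exact Mann-Whitney test that set a gene's sgRNAs against NTC sgRNAs from the same sublibrary, at an adjusted P under 0.05 over all genes. A positive call was made for 1 of the 8 members, CYB5R3, beside 18 of 18905 genes (0.0952%), and a negative call for 0, beside 72 (0.381%). A phenotype of at least 0.5 was reached by CYB5R3 alone, beside 33 genes (0.175%), and one of −0.5 or less by 0 members, beside 268 genes (1.42%). At an unadjusted exact P under 0.05 the member count was 1, beside 1533 genes (8.11%). Nothing is read from these counts, as the family was chosen on this contrast. The test compares libraries of 1 sort, with sgRNAs and not cultures as its units. For the 7 other genes, a phenotype short of the threshold does not show an absence of effect, since knockdown of the targets was not measured. Of these genes, 5 lie in H17, where NTC sgRNAs spread most (SD 0.47, against 0.28 in H23). That wider spread is mainly below 0, as the NTC range was −1.21 to 0.59 in H17 and −0.64 to 0.51 in H23.

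**Figure D3:**
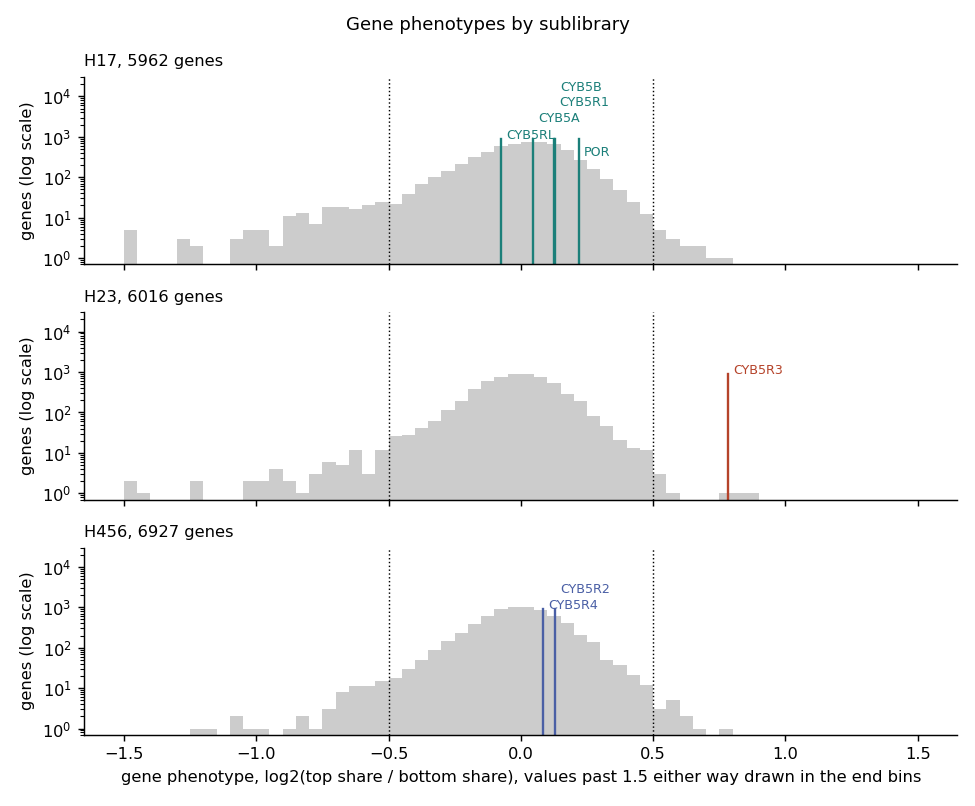
Number of genes (log scale) by gene phenotype (x axis, log2 of the top over the bottom share) in the 3 sublibraries, with the 8 genes as coloured lines and the thresholds of 0.5 and −0.5 dotted. CYB5R3 at 0.78 lies at the right edge of H23, and the other genes, between −0.08 and 0.22, lie within the body of H17 and H456.

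The genes ranked around CYB5R3 in H23 served as a scale for its sgRNAs. Above it stood SEPHS2, which makes the selenium donor of selenoproteins, with 0.86 ± 0.44 (SD, n = 5 sgRNAs). SLC11A1, a divalent metal transporter of phagocytes, had 0.84 ± 2.46 (SD, n = 6 sgRNAs). Its mean rested on 1 sgRNA with 67 reads in the top library and 0 in the bottom library, while the other 5 lay between −0.45 and 0.24. Below it were POLD3, a DNA polymerase delta subunit, with 0.60 ± 0.51, NSD1, a histone methyltransferase, with 0.55 ± 0.27, and WDR91, an endosomal protein, with 0.54 ± 0.30 (SD, n = 5 sgRNAs each). Just outside the threshold of 0.5 no member was found, the nearest being POR at 0.22. When genes were ranked by their median sgRNA, CYB5R3 ranked 1 in H23.

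**Figure D4:**
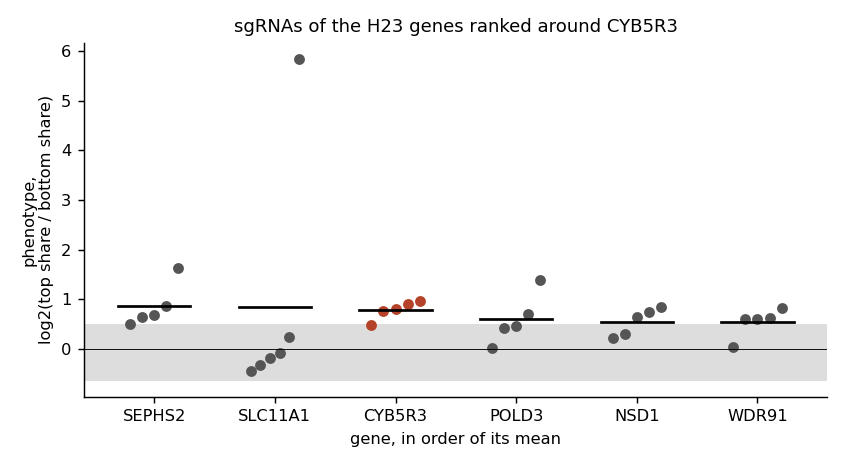
sgRNA phenotypes (y axis, log2 of the top over the bottom share) of CYB5R3 (red) and the H23 genes ranked directly above and below it (grey), with the mean as a black line and the central 95% of NTC sgRNAs shaded. SLC11A1 owes its rank to 1 sgRNA, whereas all 5 CYB5R3 sgRNAs lie between 0.48 and 0.96.

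For CYB5R3 and then the other members, the library genes beside them on the chromosome are listed as a description. The nearest library genes were ATP5L2 (now ATP5MGL), 8640 bp from the closest CYB5R3 sgRNA, with −0.04 ± 0.27, and A4GALT, 71063 bp away, with −0.10 ± 0.17 (SD, n = 5 sgRNAs each). A4GALT makes the Gb3 glycolipid. Among the neighbours of the other 7 members, phenotypes lay between −0.26 for NFAT5, beside CYB5B, and 0.30 for OVCH2, beside CYB5R2. CYB5R1 has ADIPOR1 at 0.14 and TMEM183A at −0.02, CYB5R4 has RIPPLY2 at 0.02 and MRAP2 at 0.000859, and POR has RHBDD2 at 0.12 and TMEM120A at 0.00305. PPFIBP2 (−0.08), CDCP2 (−0.04), TIMM21 (−0.17), C18orf63 (0.03) and TERF2 (0.02) completed the set beside CYB5R2, CYB5RL, CYB5A and CYB5B. None of these 16 neighbours was called, beside 0.0952% of all genes called positive and 0.381% called negative. With shares this small nothing is read from that count, and an effect on nearby genes was not tested.

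Genes related to the family were described from 9 lists holding 78 genes, all of them measured. Each list is a selection and not a full set. None was called positive, beside 0.0952% of all genes, or negative, beside 0.381%. None reached 0.5, beside 0.175% of all genes, or −0.5, beside 1.42%. With shares this small, the absence of calls among 78 genes is not read as a result. Of the 78, 41 were positive and 37 negative, with a median of 0.02. At an unadjusted exact P under 0.05 there were 12 of the 78, 5 positive and 7 negative, beside 1533 of all 18905 genes (8.11%).

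Of 11 desaturases and hydroxylases that draw on cytochrome b5, 8 were positive and 3 negative, with a median of 0.08. The highest was MSMO1, a methylsterol oxidase, at 0.25 ± 0.06, and the lowest SCD, the stearoyl-CoA desaturase, at −0.38 ± 0.14 (SD, n = 5 sgRNAs each). All 5 MSMO1 sgRNAs were positive and no SCD sgRNA was. The list of enzymes fed by POR, a selection of 18, had 6 positive and 12 negative genes and a median of −0.04. The highest was HMOX2, the constitutive heme oxygenase, at 0.33 ± 0.17, and the lowest CYP3A5, a drug-metabolising P450, at −0.45 ± 0.39 (SD, n = 5 sgRNAs each).

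The list of other proteins with a cytochrome b5 fold, a selection of 6, had a median of −0.05. It ran between CYB5D2 at 0.13 and PGRMC2, a heme-binding membrane protein, at −0.23. The 6 flavoprotein relatives of POR had a median of 0.03, between NDOR1, which works in cytosolic iron-sulfur cluster assembly, at 0.21 and NOS2, a nitric oxide synthase, at −0.09. The amidoxime-reducing system takes electrons from CYB5R3 through CYB5B and needs the molybdenum cofactor. Its 7 genes had a median of 0.13, between MOCS3 at 0.23 ± 0.80 and MOCS1 at −0.16 ± 0.09 (SD, n = 5 sgRNAs each), both of them enzymes of cofactor synthesis. Transmembrane and quinone reductases, 13 in number, had a median of 0.05, between CYB561A3 at 0.15 and CYBRD1, an iron reductase, at −0.16.

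The last lists concerned flavin supply, N-myristoylation and the insertion of tail-anchored proteins. For flavin supply, which provides the FAD of the reductases, the 6 genes had a median of 0.02, between FLAD1, the FAD synthase, at 0.23 and the riboflavin transporter SLC52A1 at −0.08. Membrane-bound CYB5R3 carries a myristoyl group. The 4 genes for N-myristoylation were all positive with a median of 0.21, between METAP2 at 0.29 ± 0.37 and NMT2 at 0.05 ± 0.27 (SD, n = 5 sgRNAs each). All 4 are in H17, and the enzymes have many substrates. Of 7 genes for insertion of tail-anchored proteins, 6 were negative with a median of −0.16, between BAG6 at 0.14 and ASNA1, the targeting ATPase, at −0.35. Cytochrome b5 is anchored by its tail, but whether it depends on these 7 genes was not tested.

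**Figure D5:**
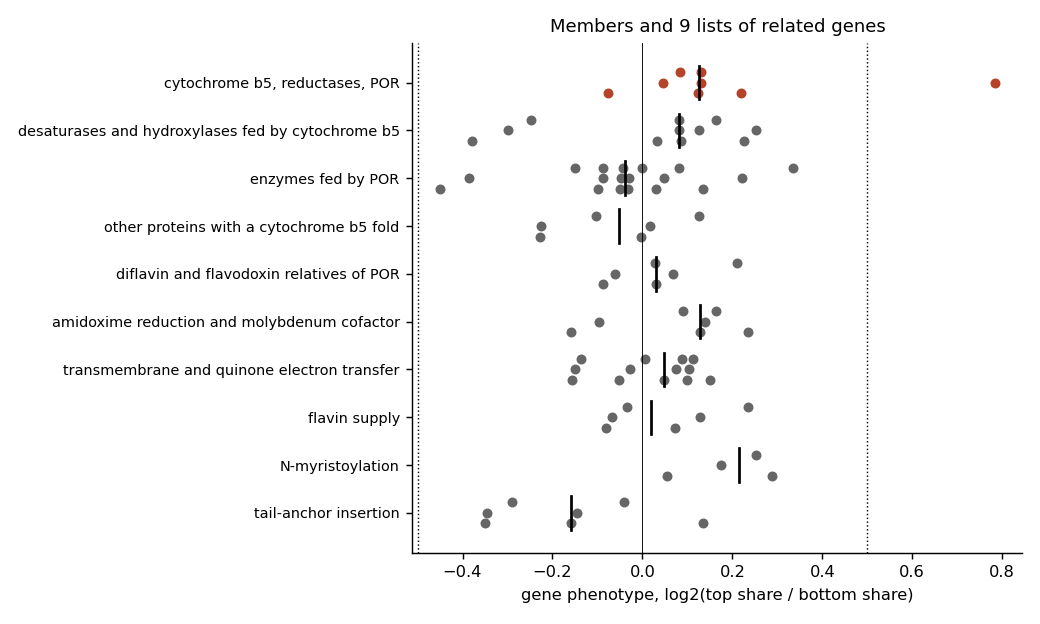
Gene phenotypes (x axis, log2 of the top over the bottom share) of the family (red, top row) and of 9 lists of related genes (grey), with list medians as black lines and the thresholds of 0.5 and −0.5 dotted. CYB5R3 at 0.78 is the only point beyond either threshold.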

How the data were processed

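The authors used 27 cycles of PCR on genomic DNA, without molecular identifiers, trimmed the reads to 38 bp and counted sgRNAs with ScreenProcessing (version 0.1). Each of the 6 deposited files holds raw counts of 209070 sgRNAs. The sources used here name no genome build for the sgRNAs.

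sgRNAs with at least 50 reads in at least one library of their sublibrary were analysed (39 of 40 for the family). Another 40 library sgRNAs of these genes had no reads. Where 1 count was 0, 1 was added to both. A gene's phenotype is the mean over its sgRNAs at a start site with at least 2 of them. P came from the exact two-sided Mann-Whitney test with Benjamini-Hochberg adjustment over 18905 genes. For genes with several start sites the one with the lower P was kept, with no correction for that choice. With start sites pooled, all genes gave 15 positive and 60 negative calls, against 18 and 72. With 1 library per quartile there is no replicate test, and edgeR (version 4.0.16) served only for TMM centring. Python (version 3.11.15) did the rest. The procedure was also run on simulated data whose sgRNA values were drawn from the NTC sgRNAs. Such data cannot show whether NTC sgRNAs are a fitting comparison set, and nothing is read from that run.

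Named were the 8 members, up to 3 genes ranked on either side of CYB5R3, the nearest library gene on either side of each member, and from each list the called genes or otherwise its highest and lowest. The members and lists were chosen with earlier results of these data known. sgRNA sequences and proteins were not used here. The alternatives were 3 other read minimums (1, 100, or 50 in both libraries), an added count of 1 or 10 throughout, TMM centring or the median of all sgRNAs as centre, the median or the mean of the 3 strongest sgRNAs, leaving out the strongest, pooled start sites, thinning to the smaller total, and olfactory receptor sgRNAs as comparison set. Averaging overlapping sgRNAs first (same strand, under 19 bp apart) was chosen after seeing the data.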

Additional observations from a re-analysis of the deposited data

How the results depend on the processing

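Under the 13 alternatives chosen in advance CYB5R3 was the only member called and the only one past 0.5. Its phenotype lay between 0.74 and 0.89 under these, under the leaving out of each sgRNA and under the averaging of overlapping sgRNAs. Its rank in H23 ran from 1 to 6. Several alternatives could not alter these results. The choice of centre and of gene summary does not enter the rank test, so all genes kept 18 positive and 72 negative calls there. Pooling start sites and the olfactory receptor set left the CYB5R3 phenotype at 0.78. The family was chosen on this value, so its steadiness is a description and no support for the call. Without the strongest sgRNA of each gene, the calls over all genes were 2 positive and 20 negative, against 18 and 72 as reported, and with the olfactory receptor sgRNAs as comparison set they were 9 and 41. Every other member moved by less than the SD over its sgRNAs. CYB5R1 and CYB5A each had the other sign in 2 of the alternatives and CYB5RL in 1, while POR kept a positive value, from 0.12 to 0.40. No paired analysis was possible because each quartile of a sublibrary has 1 library. The spread between cultures or sorts is therefore unknown, and sgRNAs with few reads, such as 1 of CYB5A with 82 in the top library and 132 in the bottom library, limit single values.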

Other observations

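Of the 78 list genes, 12 had an unadjusted exact P under 0.05, beside 8.11% of all 18905 genes. None passed the adjustment over all genes, which 0.0952% of all genes did as positive and 0.381% as negative. The values below are therefore a description only. The following 4, which the rule for names did not take, were chosen after their values were seen. Positive was CYP51A1, the lanosterol demethylase, at 0.22 ± 0.12 with 5 of 5 sgRNAs above 0. Negative were DEGS1, the dihydroceramide desaturase, at −0.25 ± 0.22 and TMEM189, the plasmanylethanolamine desaturase, at −0.30 ± 0.17, each with 0 of 5 sgRNAs above 0 (SD, n = 5 sgRNAs each). GET4, a factor of tail-anchored protein insertion, had −0.29 ± 0.27, with 1 of 5 sgRNAs above 0.

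Overlapping sgRNAs of the same strand gave 10 pairs in 7 of the 8 genes, all but CYB5A, with positions 3 to 16 bp apart. The median absolute difference of their phenotypes was 0.23. It was smallest for the CYB5R3 pair, 3 bp apart (0.91 and 0.96), and largest for the POR pair, 15 bp apart (0.25 and −0.59).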
